A study of Mus musculus with 9 samples.

Results

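The 40 genes described here are a set of cell cycle and mitosis genes, from proliferation markers to replication, cyclin, kinase, checkpoint, kinetochore and spindle genes. Members were the genes of these names with at least 0.5 FPKM (fragments scaled to gene length and library size) in at least 3 of 9 libraries. Of the 40 names, 39 had a row in the deposited gene table, and all 39 passed in 9 of 9 libraries, out of 15600 features that passed among 28370 in all. The lowest values inside the limit were those of Cenpa, at 0.537 FPKM in a non-diabetic library and 0.549 FPKM in a diabetic one. E2f1 was not analysed here. The libraries were bulk RNA from ulcer skin collected on day 21, with 3 libraries in each of 3 groups. The first group was diabetic ulcers given 0.5 ml of platelet-rich plasma (PRP, a platelet concentrate of blood plasma) into the wound on days 1, 7, 14 and 21. The second was diabetic ulcers given saline in the same volume, here called diabetic, and the third was ulcers of non-diabetic animals given saline, here called non-diabetic. All groups had a wound and injections, so no unwounded skin serves as a baseline, and the labels do not say how diabetes was induced. The labels name the organism as mouse, the series design names rats, and every gene identifier in the table is a rat one.

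A dividing cell first commits to the cycle through D-type and E-type cyclins, then loads the MCM helicase onto its DNA and copies it with help from the PCNA clamp and the nucleotide-making enzymes. It then enters mitosis through cyclin A, cyclin B and CDK1, and kinetochore, checkpoint and spindle proteins share out the chromosomes before the cell divides. In skin, transcripts of these genes come largely from the basal epidermis and from the matrix of growing hair follicles, and in a wound also from dividing fibroblasts, endothelial cells and macrophages.

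The genes of late and early phases are known to carry different promoter elements, and the sequences below are shown because these genes moved together across the ulcers. Promoters are mouse sequences from RefSeq (GRCm38.p6), 250 bases before to 50 bases after the start, and 32 of the 39 genes were matched by symbol. Aurkb, Ccnd1, Tpx2, Mcm4, Ccne2, Ccna2 and Kif20a were not matched. Capitals mark 3 motifs searched on both strands. The cell cycle homology region, or CHR, was searched as TTTGAA. The CCAAT box was searched by the letters of its name. An E2F-type site was searched as TTCCCGC, by a variant spelled TTGGCGC and by another variant spelled TTCGCGC. Adjoining or overlapping matches run together in the print. The first 3 sequences belong to mitotic or G2 genes, the next 2 to replication helicase subunits, and the last to Aurka, whose levels followed the others least. They lie, in the order given, at chr9:70421505-70421804, chr4:118437294-118437593, chr11:99024140-99024439, chr1:20820263-20820562, chr5:138171834-138172133 and chr2:172370521-172370820, all on the minus strand and written 5′ to 3′.
Ccnb2: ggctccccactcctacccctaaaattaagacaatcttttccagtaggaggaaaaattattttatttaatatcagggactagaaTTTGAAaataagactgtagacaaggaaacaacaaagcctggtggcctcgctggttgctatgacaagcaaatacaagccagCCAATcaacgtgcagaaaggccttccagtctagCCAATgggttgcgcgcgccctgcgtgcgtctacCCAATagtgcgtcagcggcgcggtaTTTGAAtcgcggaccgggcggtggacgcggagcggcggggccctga
Cdc20: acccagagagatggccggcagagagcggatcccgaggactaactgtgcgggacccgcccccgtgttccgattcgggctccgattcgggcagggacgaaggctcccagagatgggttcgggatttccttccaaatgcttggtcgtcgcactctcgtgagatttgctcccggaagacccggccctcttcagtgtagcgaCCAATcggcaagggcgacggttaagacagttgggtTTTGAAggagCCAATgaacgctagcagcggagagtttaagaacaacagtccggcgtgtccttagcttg
Top2a: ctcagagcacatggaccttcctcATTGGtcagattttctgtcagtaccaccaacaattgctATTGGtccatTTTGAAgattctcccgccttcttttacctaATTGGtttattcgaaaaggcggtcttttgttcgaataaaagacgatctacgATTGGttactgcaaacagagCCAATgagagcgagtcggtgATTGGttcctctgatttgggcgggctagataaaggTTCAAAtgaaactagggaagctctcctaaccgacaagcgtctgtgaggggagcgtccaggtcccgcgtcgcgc
Mcm3: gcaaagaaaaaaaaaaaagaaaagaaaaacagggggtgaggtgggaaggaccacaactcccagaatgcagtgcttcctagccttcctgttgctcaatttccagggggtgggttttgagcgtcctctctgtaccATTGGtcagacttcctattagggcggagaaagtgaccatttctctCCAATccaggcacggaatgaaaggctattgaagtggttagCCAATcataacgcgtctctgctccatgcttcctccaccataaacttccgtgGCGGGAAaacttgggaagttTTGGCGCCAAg
Mcm7: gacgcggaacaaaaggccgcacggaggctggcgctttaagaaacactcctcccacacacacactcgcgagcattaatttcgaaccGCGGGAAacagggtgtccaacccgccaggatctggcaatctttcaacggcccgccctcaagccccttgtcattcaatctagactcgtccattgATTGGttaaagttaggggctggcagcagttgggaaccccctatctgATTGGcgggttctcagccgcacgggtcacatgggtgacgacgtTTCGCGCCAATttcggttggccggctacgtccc
Aurka: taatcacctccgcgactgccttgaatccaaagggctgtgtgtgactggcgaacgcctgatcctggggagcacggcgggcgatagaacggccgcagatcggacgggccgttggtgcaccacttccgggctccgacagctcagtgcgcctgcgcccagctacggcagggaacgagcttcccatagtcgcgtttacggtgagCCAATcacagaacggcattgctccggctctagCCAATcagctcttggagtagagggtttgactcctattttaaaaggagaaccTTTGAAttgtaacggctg
Among 20 matched genes of G2, mitosis and the marker group, 75.0% held a CHR match, against 8.33% of the 12 matched genes of G1, S phase and replication and 18.1% of 27025 promoters of the table. CCAAT was found in 90.0% of the mitotic set, 66.7% of the early set and 37.9% of all promoters. An E2F-type match was found in 15% of the mitotic set, 58.3% of the early set and 8.21% of all promoters. A CCAAT match and an E2F-type match shared bases in 2 genes, Mcm7 and Ccnb1, and a CHR match shared bases with another motif in Cdca8. These are matches of letters in mouse windows, not measured sites.

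FPKM totals per library ran between 564078 and 728332. Sequencing depth is not given by FPKM; the ratio of deposited read counts to FPKM over 81 lncRNA genes gave relative depths between 0.839 and 1.12, with the lowest in non-diabetic replicate 3. Epithelial content was summarised as the mean log2(FPKM + 1) of 45 marker genes of basal keratinocytes, cornified keratinocytes and hair follicles. This score was 6.22, 5.84 and 4.99 in PRP ulcers, 4.88, 7.05 and 6.75 in diabetic ulcers, and 3.78, 5.85 and 1.62 in non-diabetic ulcers (replicates 1, 2 and 3 in each). Non-diabetic replicate 3 stood apart, with a summed FPKM of 33.7 over 26 hair follicle markers and 2 of them, Krt72 and Krt36, at 0. Diabetic replicate 1 had the highest summed FPKM of 11 skeletal muscle markers, none of them at 0 in any library: 5177 to 7582 in PRP ulcers, 4913 to 18887 in diabetic ulcers and 264.6 to 5056 in non-diabetic ulcers. The epidermal markers Krt14, Lor and Flg have no row of that name, so the label of skin rests on the other markers. Every log2 value below is on the log2(FPKM + 1) scale, which understates the change of genes at low levels.

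None of the 39 genes passed the test between any pair of groups after adjustment, and their levels spread most among the 3 diabetic ulcers. Diabetic replicate 1 held the lowest level of 25 of the 39 genes (64.1%, against 11.9% of all features tested), from Mki67 to the spindle motors. Non-diabetic replicate 1 held the lowest level of 13 more. Diabetic replicate 2 held the highest level of 29 (74.4%, against 27.1% of all features), and diabetic replicate 3 that of 9 more. The mean level of the 39 genes was 3.11, 2.84 and 2.67 on the log2 scale in PRP ulcers, 2.20, 3.53 and 3.28 in diabetic ulcers, and 2.38, 2.92 and 2.79 in non-diabetic ulcers. By this mean, diabetic ulcers gave the lowest library and the 2 highest, and the PRP and non-diabetic libraries lay between them. In bulk tissue, fewer dividing cells and less RNA per dividing cell cannot be told apart.

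**Figure D1:**
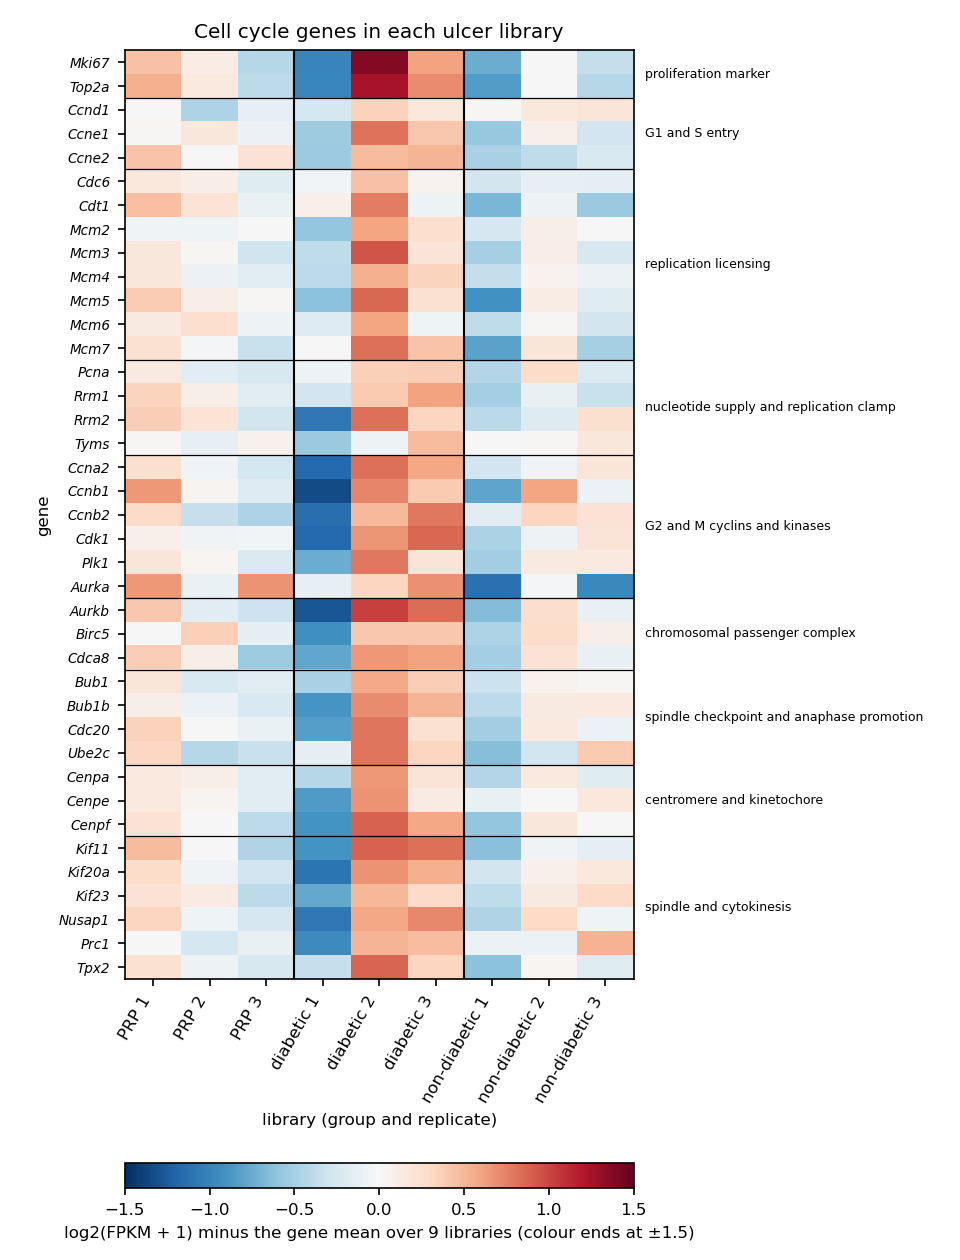
Each row is a gene, grouped by role, and each column a library; colour is log2(FPKM + 1) minus the gene's mean over 9 libraries. Diabetic replicate 1 is blue for most rows and diabetic replicates 2 and 3 are red, while PRP replicate 1 is the reddest of the PRP columns.

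Mki67, which encodes the Ki-67 antigen of cycling cells, had 18.2, 14.2 and 9.49 FPKM in PRP ulcers, 6.07, 35.7 and 20.5 FPKM in diabetic ulcers, and 7.40, 13 and 9.98 FPKM in non-diabetic ulcers. The diabetic group spanned every other library, since its replicate 1 was the lowest of 9 and its replicates 2 and 3 the highest. Its group means were 14.0 ± 4.34 FPKM in PRP, 20.7 ± 14.8 in diabetic and 10.1 ± 2.83 in non-diabetic ulcers (SD, n = 3 each). Top2a, the topoisomerase that untangles copied DNA, had 18.8, 14.1 and 9.46 FPKM in PRP ulcers, 5.92, 31.3 and 21.3 FPKM in diabetic ulcers, and 6.66, 12.7 and 9.19 FPKM in non-diabetic ulcers. The order was nearly that of Mki67, and the correlation of both genes over 9 libraries was 0.99 on the log2 scale. Mki67 lies on rat chromosome 1 at 190496319-190522762 and Top2a on chromosome 10 at 83945735-83976874, both on the minus strand, in the coordinates of the deposited table, whose rat build is not stated in the labels or headers.

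Ccnd1, the cyclin D1 that couples growth signals to cycle entry, shared this pattern only in part. It had 24.1, 17.3 and 22.1 FPKM in PRP ulcers, 20.1, 31.2 and 27.2 FPKM in diabetic ulcers, and 24.7, 27.1 and 27.6 FPKM in non-diabetic ulcers. The highest library, diabetic replicate 2, was 1.81-fold above the lowest, PRP replicate 2, and all 3 PRP libraries lay below all 3 non-diabetic ones. Ccne1, the cyclin E1 that starts S phase, had 2.13, 2.48 and 1.91 FPKM in PRP ulcers, 1.15, 4.45 and 3.10 FPKM in diabetic ulcers, and 1.09, 2.25 and 1.53 FPKM in non-diabetic ulcers. Here diabetic replicates 2 and 3 were again the highest, and replicate 1 lay beside the lowest library, non-diabetic replicate 1.

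The replication licensing genes varied less between diabetic ulcers than the markers. Mcm7, a subunit of the MCM helicase, had 20.5, 16.9 and 13.5 FPKM in PRP ulcers, 17.2, 31.5 and 23.5 FPKM in diabetic ulcers, and 9.45, 19.7 and 12 FPKM in non-diabetic ulcers. Mcm4, of the same helicase, had 17.4, 14.3 and 13.5 FPKM in PRP ulcers, 11.5, 22.6 and 19.6 FPKM in diabetic ulcers, and 11.7, 16 and 14.4 FPKM in non-diabetic ulcers. For both subunits diabetic replicates 2 and 3 were the highest libraries, yet diabetic replicate 1 was mid-range for Mcm7 and lowest for Mcm4. All 8 licensing genes, which include the loading factors Cdc6 and Cdt1, peaked in diabetic replicate 2. Among genes of nucleotide supply, Rrm1, the large subunit of ribonucleotide reductase, had 38, 31.8 and 26.6 FPKM in PRP ulcers, 24.3, 39.8 and 46.1 FPKM in diabetic ulcers, and 20.8, 27.7 and 23.5 FPKM in non-diabetic ulcers. Pcna, the clamp that holds polymerases on DNA, had 32.1, 25.9 and 24.7 FPKM in PRP ulcers, 27.7, 37.7 and 38.2 FPKM in diabetic ulcers, and 21.3, 35.5 and 25.1 FPKM in non-diabetic ulcers. Diabetic replicate 3 was the highest for both, and non-diabetic replicate 1 the lowest, with overlapping groups.

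The G2 and mitotic cyclins and kinases spread widely, with a median of 4.78-fold between the highest and the lowest library, against 5.58-fold for the 2 markers and 2.98-fold for licensing genes. Ccnb2, cyclin B2, which activates CDK1 at mitotic entry, had 12.3, 7.62 and 6.94 FPKM in PRP ulcers, 4.0, 14.3 and 18 FPKM in diabetic ulcers, and 8.79, 12.7 and 11.7 FPKM in non-diabetic ulcers. The 3 diabetic values again enclosed all the others. Aurka, the centrosomal kinase Aurora A, departed from this: it had 19.3, 11.1 and 19.7 FPKM in PRP ulcers, 11, 15.2 and 19.8 FPKM in diabetic ulcers, and 4.98, 11.7 and 5.65 FPKM in non-diabetic ulcers. Its 2 lowest libraries were non-diabetic replicates 1 and 3, and non-diabetic replicate 2 overlapped the lower libraries of the other groups. Aurkb, the Aurora B kinase of the chromosomal passenger complex, had 9.38, 5.97 and 5.30 FPKM in PRP ulcers, 2.22, 14.9 and 13 FPKM in diabetic ulcers, and 3.99, 8.42 and 6.27 FPKM in non-diabetic ulcers. Cdca8, the borealin subunit of that complex, had 8.01, 6.38 and 3.80 FPKM in PRP ulcers, 3.07, 9.96 and 9.55 FPKM in diabetic ulcers, and 3.90, 7.08 and 5.45 FPKM in non-diabetic ulcers. Both kept diabetic replicate 1 lowest and diabetic replicates 2 and 3 highest, with the PRP and non-diabetic ulcers overlapping in between.

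Cdc20, the activator of the anaphase-promoting complex, had 8.06, 6.16 and 5.68 FPKM in PRP ulcers, 3.03, 11.5 and 7.34 FPKM in diabetic ulcers, and 3.95, 6.89 and 5.68 FPKM in non-diabetic ulcers. Bub1, a spindle checkpoint kinase, had 4.63, 3.24 and 3.44 FPKM in PRP ulcers, 2.53, 6.33 and 5.40 FPKM in diabetic ulcers, and 2.95, 4.11 and 4.01 FPKM in non-diabetic ulcers. In both genes diabetic replicate 1 was lowest and diabetic replicate 2 highest. Cenpf, a kinetochore protein, had 7.05, 5.93 and 4.26 FPKM in PRP ulcers, 2.74, 11.8 and 9.39 FPKM in diabetic ulcers, and 3.65, 6.79 and 5.95 FPKM in non-diabetic ulcers. Cenpe, a kinetochore motor, had 3.82, 3.49 and 2.87 FPKM in PRP ulcers, 1.42, 5.96 and 3.73 FPKM in diabetic ulcers, and 3.02, 3.34 and 3.88 FPKM in non-diabetic ulcers. Its diabetic replicate 1 lay well below the other 8 libraries, which ran between 2.87 and 5.96 FPKM. Kif11, the motor that pushes spindle poles apart, had 9.47, 6.51 and 4.51 FPKM in PRP ulcers, 3.05, 13 and 12.4 FPKM in diabetic ulcers, and 3.90, 6.29 and 5.82 FPKM in non-diabetic ulcers. Nusap1, which bundles spindle microtubules, had 7.94, 5.81 and 5.0 FPKM in PRP ulcers, 2.39, 9.70 and 10.7 FPKM in diabetic ulcers, and 4.22, 7.79 and 5.81 FPKM in non-diabetic ulcers. Both showed the same enclosure of all other libraries by the diabetic ones. Mean levels of the 39 genes ran between 0.932 FPKM for Cdc6 and 31 FPKM for Rrm1, with 10 genes above 10 FPKM.

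**Figure D2:**
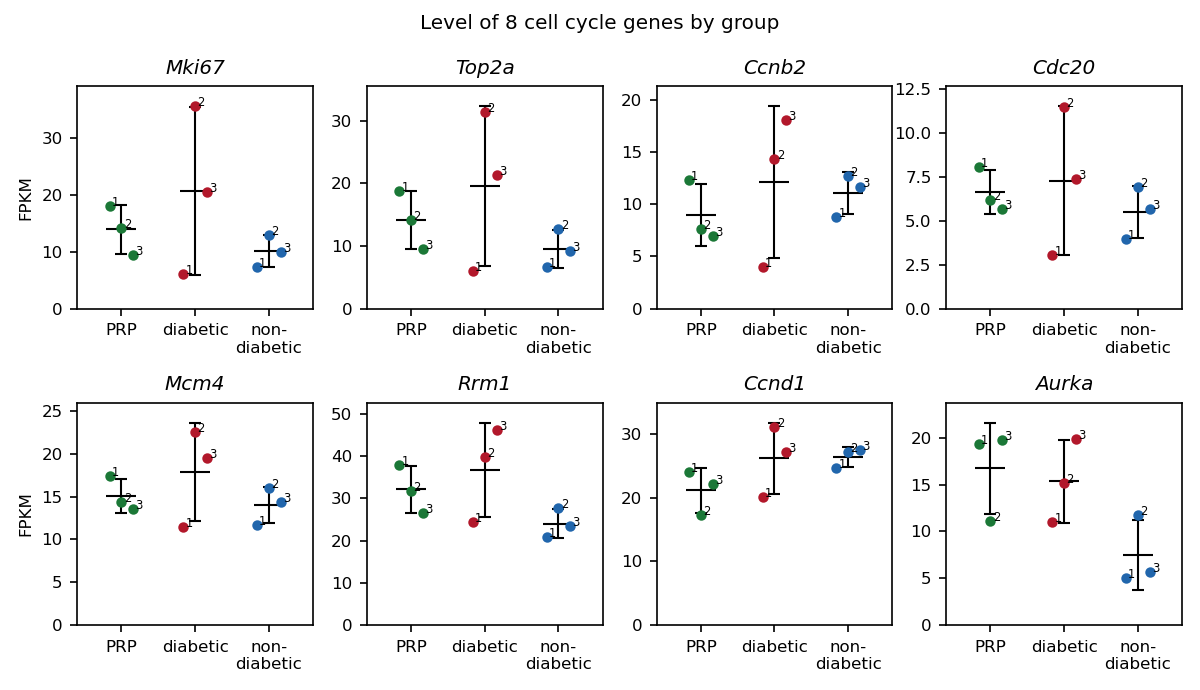
Points are libraries, numbered by replicate, with FPKM on the vertical axis; horizontal bars are group means and whiskers the SD of 3 libraries. Diabetic values of Mki67 run between 6.07 and 35.7 FPKM and enclose the PRP and non-diabetic values, whereas Ccnd1 stays between 17.3 and 31.2 FPKM and Aurka is lowest in 2 non-diabetic libraries.

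The first comparison asked whether diabetes changed these genes in saline-treated ulcers. With limma over all 9 libraries and Benjamini-Hochberg adjustment over 15600 features, 0 of 39 genes passed an adjusted p of 0.05, while 8.95% of all features did. At an unadjusted p under 0.05 there were 3 of 39 genes, against 34.7% of all features. These 3 were Aurka (log2 difference 1.00, SE 0.35, adjusted p = 0.0886), Mcm7 (0.79, SE 0.30, adjusted p = 0.107) and Cdt1 (0.69, SE 0.27, adjusted p = 0.110). Cdt1, named after its values were seen, had 2.04, 3.90 and 1.74 FPKM in diabetic ulcers and 0.794, 1.73 and 0.964 FPKM in non-diabetic ulcers. Cdt1 and Cdc6 were the 2 genes whose diabetic libraries all lay above the non-diabetic ones, against 34.1% of features whose groups did not overlap. For Mki67 the log2 difference was 0.70 (SE 0.54, adjusted p = 0.368) and for Top2a 0.74 (SE 0.53, adjusted p = 0.335). The estimate was positive for 32 of 39 genes, with a median of 0.29 beside 0.04 over all features. This median was 0.69 without diabetic replicate 1, 0.03 without diabetic replicate 2, 0.13 without diabetic replicate 3, 0.12 without non-diabetic replicate 1 and 0.63 with sample weights. Over all features the median ran between -0.01 and 0.08 in these fits. With the epithelial score of each library as a covariate, the sign turned for the 39 genes, to -0.16, and over all features, to -0.05. The median SE was 0.35 for the 39 genes and 0.22 for all features.

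Whether genes of the set passed in this comparison changed with the libraries kept and with their weights. With all 9 libraries and sample weights, 8 genes passed as higher in diabetic ulcers, beside 35.9% of all features in either direction. Of those 5607 features, 2716 were higher and 2891 lower in diabetic ulcers. Non-diabetic replicate 1 had a weight of 7.5 in that fit, against 0.482 and 0.827 for non-diabetic replicates 2 and 3. Without diabetic replicate 1, 9 genes were higher in diabetic ulcers in the same limma test (Mki67, Top2a, Ccne1, Ccne2, Rrm1, Ccna2, Cdk1, Aurkb and Kif11), beside 16.7% of all features in either direction. Of those 2609 features, 878 were higher and 1731 lower. Mki67 then had a log2 difference of 1.36 (SE 0.35, adjusted p = 0.0396) and Top2a one of 1.39 (SE 0.34, adjusted p = 0.0358). Without non-diabetic replicate 2, Mcm7 and Aurka passed, beside 22.4% of all features. Diabetic replicate 1 also had the lowest epithelial score of the diabetic ulcers and the most skeletal muscle transcript of all 9. The part of tissue composition in the low cell cycle levels of that library was not tested.

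The second comparison set PRP against saline in diabetic ulcers. limma called 0 of 39 genes, as it called 0% of all features, and 0 of 39 had an unadjusted p under 0.05, against 6.54% of all features. No gene of the set had PRP libraries all above or all below the diabetic ones, which held for 11.3% of all features. The PRP estimate was lower for 30 of 39 genes, with a median log2 difference of -0.13 beside -0.06 for all features. Without diabetic replicate 1, 18 of 39 genes had an unadjusted p under 0.05, against 13.7% of all features, and all 39 estimates were negative, with a median of -0.50 beside -0.08 over all features. None passed adjustment there either, the smallest adjusted p in limma being 0.301. Without diabetic replicate 2 the median was 0.13 and 30 estimates were positive, and without diabetic replicate 3 it was 0.011. It was -0.21 without PRP replicate 1 and -0.024 without PRP replicate 3. Mki67 differed by -0.29 (SE 0.54, adjusted p = 0.884) and Top2a by -0.22 (SE 0.53, adjusted p = 0.908). The 2 largest estimates were those of Ube2c, the ubiquitin-conjugating enzyme of the anaphase-promoting complex, at -0.48 (SE 0.34, adjusted p = 0.739) and Mcm7 at -0.46 (SE 0.30, adjusted p = 0.724). For 33 of 39 genes the PRP range lay inside the diabetic range (84.6%, against 30.8% of all features). With SEs of this size, a difference of the observed size was not detectable between 3 and 3 libraries.

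The third comparison set PRP-treated diabetic ulcers against non-diabetic ulcers. limma called 0 of 39 genes and 0.00641% of all features, and 2 of 39 genes had an unadjusted p under 0.05, against 20.4% of all features. These were Aurka, at a log2 difference of 1.11 (SE 0.35, adjusted p = 0.167), and Cdt1 at 0.62 (SE 0.27, adjusted p = 0.239). Without non-diabetic replicate 2, Aurka passed in this comparison too, beside 4.58% of all features. The groups did not overlap for Ccne2, higher in PRP, and Ccnd1, lower in PRP, which is 2 of 39 genes against 29.4% of all features. Ccne2, the second E-type cyclin, had 3.01, 2.01 and 2.47 FPKM in PRP ulcers against 1.14, 1.30 and 1.55 FPKM in non-diabetic ulcers (log2 difference 0.58, SE 0.28, adjusted p = 0.282). Ccnd1 differed by -0.32 (SE 0.19, adjusted p = 0.374). The median difference over the 39 genes was 0.12, with 31 positive, beside -0.04 over all features. It was 0.024 without PRP replicate 1, 0.28 without PRP replicate 3, -0.07 with non-diabetic replicate 1 left out and 0.26 with non-diabetic replicate 2 left out. Over the 3 groups together, an F test called 0 of 39 genes and 0.00641% of all features, and 1 gene, Aurka, had an unadjusted p under 0.05, against 26.4% of all features. The SEs pool the spread of all 3 groups, so the spread of the diabetic libraries also enters the comparison of PRP with non-diabetic ulcers. With only the 6 libraries of that comparison, limma called 0 of 39 genes and 0% of all features. An unadjusted p under 0.05 was then found for 3 of 39 genes, against 23.9% of all features, and the smallest adjusted p was 0.128. The comparisons share libraries, so their estimates are not independent.

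**Figure D3:**
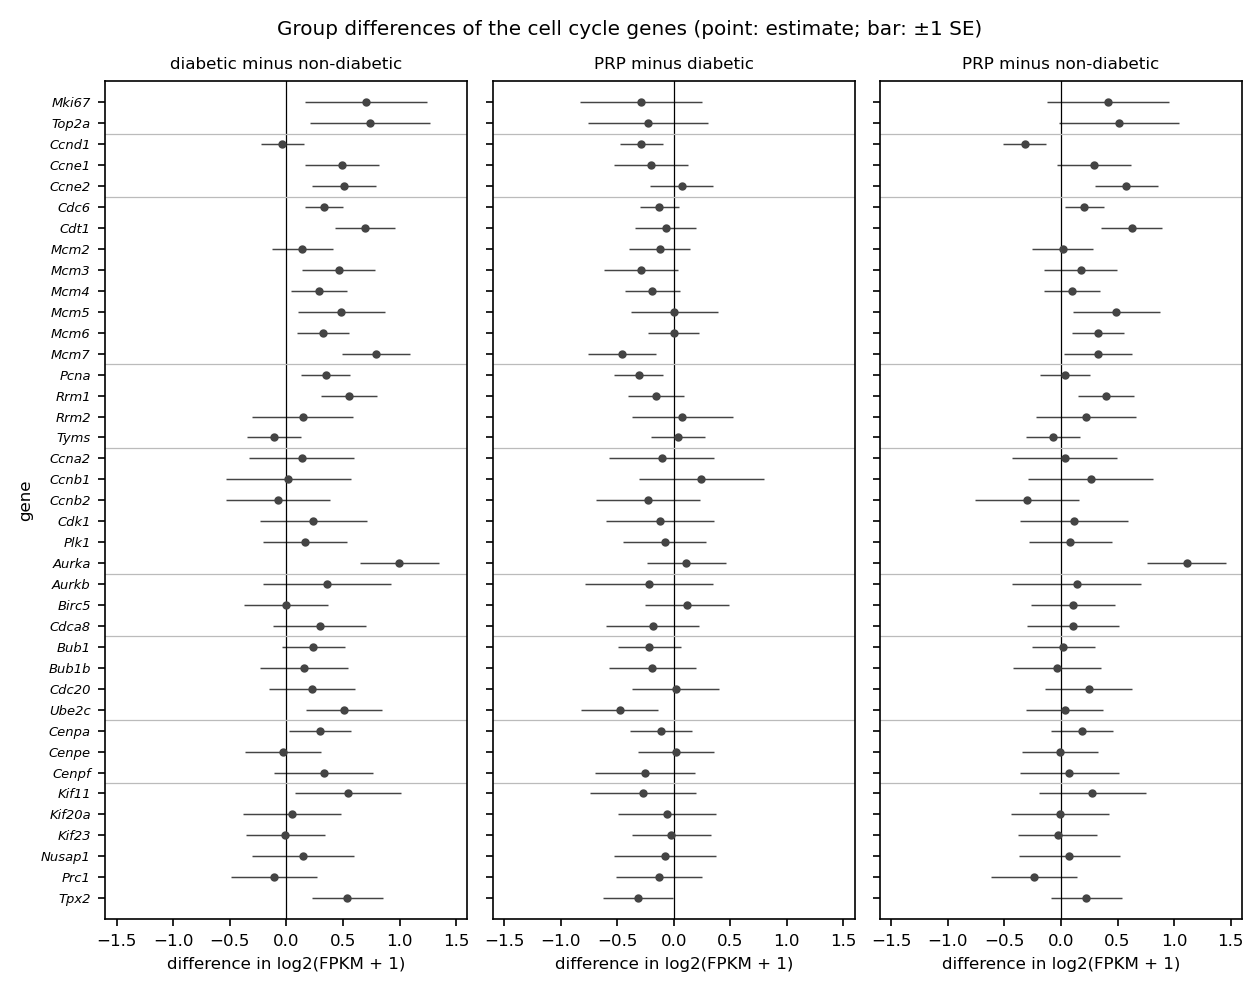
Points are differences in log2(FPKM + 1) for each of the 39 genes and bars are 1 SE, in 3 panels that each name the comparison. Most estimates lie right of 0 for diabetic minus non-diabetic and left of 0 for PRP minus diabetic, with Aurka at 1.00 and 1.11 against non-diabetic ulcers.

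The spread within the diabetic group exceeded that between groups for most genes of the set. Of the sum of squares of log2(FPKM + 1), a median of 65.9% lay within the diabetic group, 11.2% between the 3 groups, 7.78% within PRP and 11.8% within non-diabetic ulcers. Over all features these medians were 22.7%, 42.8%, 9.55% and 12.1%. The median SD on the log2 scale was 0.24 in PRP, 0.74 in diabetic and 0.33 in non-diabetic ulcers. Diabetic replicate 1 was the lowest of the diabetic libraries for 38 of 39 genes, the exception being Cdt1, beside 6275 of all 15600 features. The median ratio of diabetic replicate 2 to replicate 1 was 3.37, and that of replicate 3 to replicate 1 was 2.61, beside 1.07 and 1.04 over all features.

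This ratio differed by role. Diabetic replicate 2 exceeded replicate 1 by a median of 5.58-fold for the proliferation markers, 4.34-fold for G2 and mitotic cyclins and kinases, 4.18-fold for centromere and kinetochore genes and 3.76-fold for spindle and cytokinesis genes. It was 3.33-fold for the chromosomal passenger complex and 3.15-fold for checkpoint and anaphase genes. For replication licensing genes the median ratio was 1.95, and for nucleotide supply and the clamp it was 1.55. The 3 genes of G1 and S entry, also early, had a median of 3.03. For replicate 3 over replicate 1, medians by role ran between 1.49 for licensing and 4.22 for G2 and mitotic cyclins and kinases, with 2.07 for nucleotide supply and the clamp. The share of the sum of squares between groups was 3.12% for G2 and mitotic cyclins and kinases and 25.9% for licensing genes. At the extremes, Aurkb was 6.72-fold and Mki67 5.88-fold higher in diabetic replicate 2 than in replicate 1, whereas Aurka was 1.39-fold and Pcna 1.36-fold higher.

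**Figure D4:**
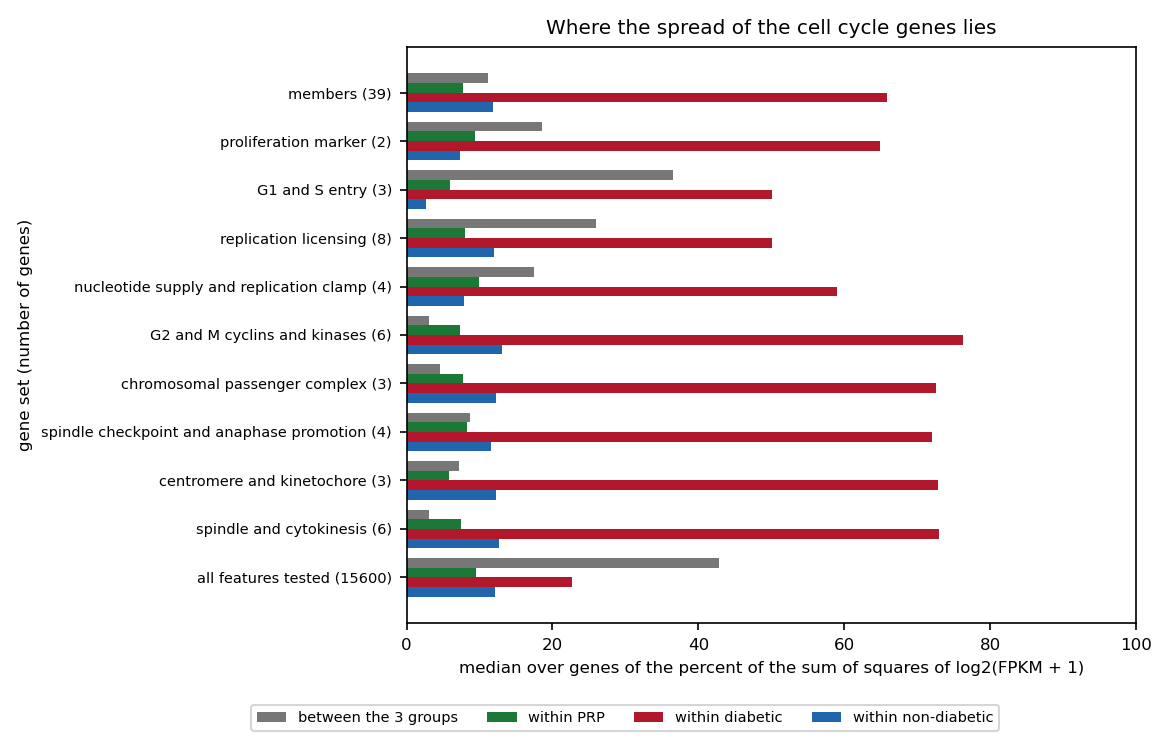
Bars give, for each role and for all features, the median percent of the sum of squares of log2(FPKM + 1) between groups and within each group. The diabetic bar is the longest for every role, at 65.9% over all 39 genes, while between-group spread is the longest for all features, at 42.8%.

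Genes of the set varied together over the 9 libraries. The median pairwise correlation was 0.81 over 741 gene pairs, and 386 pairs were above 0.8; the points share the same 9 libraries, so these are descriptions. Cenpf and Cdc20 had the highest median correlation with the other genes, 0.92 and 0.91. Aurka (0.49), Tyms (0.51), Ccnd1 (0.53) and Cdt1 (0.54) had the lowest. Tyms, thymidylate synthase, had 8.49, 7.6 and 8.82 FPKM in PRP ulcers, 5.38, 7.84 and 12 FPKM in diabetic ulcers, and 8.33, 8.45 and 9.52 FPKM in non-diabetic ulcers. Outside the set, the 8 named genes most like the mean of its G2 and mitotic genes were Tk1, Ercc6l, Racgap1, Kif4a, Oip5, Kif18b, Fam83d and Kifc1, with correlations between 0.978 and 0.991 among 12558 candidates with a mean of at least 1 FPKM. Tk1, the thymidine kinase of S phase, had 8.29, 5.68 and 4.68 FPKM in PRP ulcers, 1.67, 11.6 and 9.16 FPKM in diabetic ulcers, and 3.32, 6.6 and 6.29 FPKM in non-diabetic ulcers. Its diabetic replicate 2 was 6.93-fold above replicate 1. Of the 100 most alike genes, 30 were in the 4 pathway lists below, and 3.80% of all candidates had a correlation above 0.8.

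Other genes of the pathway were read from 4 lists. Of 38 further genes of DNA replication and repair, 0 passed in any comparison, against 8.95% of all features for diabetic against non-diabetic ulcers. In that comparison 37 had a positive diabetic estimate (median 0.41, beside 0.04 over all features). An unadjusted p under 0.05 was found there for 7 (18.4%), a smaller share than the 34.7% of all features. Dut, which removes dUTP from the nucleotide pool, had 15.4, 13.8 and 11.6 FPKM in PRP ulcers, 11.4, 18.4 and 18 FPKM in diabetic ulcers, and 8.33, 12.7 and 8.19 FPKM in non-diabetic ulcers, with a log2 difference of 0.65 (SE 0.24, adjusted p = 0.0948, diabetic minus non-diabetic). Rfc4, of the clamp loader, differed by 0.55 (SE 0.23, adjusted p = 0.128). Slbp, which binds histone transcripts, stayed between 16.8 and 19.8 FPKM in all 9 libraries. Of 57 further mitosis genes, 53 were tested and 0 passed in any comparison, against 8.95% of all features for diabetic against non-diabetic ulcers. There, 2 (3.77%) had an unadjusted p under 0.05, against 34.7% of all features. The median was 0.23 for diabetic minus non-diabetic and -0.17 for PRP minus diabetic, beside 0.04 and -0.06 over all features. Among the mitosis genes Stmn1, the microtubule regulator stathmin, had 10, 13.7 and 6.06 FPKM in PRP ulcers, 4.59, 21.8 and 20.2 FPKM in diabetic ulcers, and 2.55, 7.26 and 3.7 FPKM in non-diabetic ulcers (diabetic minus non-diabetic log2 1.43, SE 0.56, adjusted p = 0.115).

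Of 12 G1 cyclins, kinases and E2F factors, 1 passed (8.33%, near the 8.95% of all features): Ccnd3, cyclin D3, was lower in diabetic ulcers. It had 16.9, 13.6 and 14.7 FPKM in diabetic ulcers and 29.8, 21.8 and 38.1 FPKM in non-diabetic ulcers, without overlap, and 17.3, 19.3 and 22.8 FPKM in PRP ulcers. Its log2 difference was -0.91 (SE 0.21, adjusted p = 0.0402, diabetic minus non-diabetic). Ccnd2, cyclin D2, had 32.1, 77.2 and 49.1 FPKM in diabetic ulcers and 21.7, 36.9 and 19.9 FPKM in non-diabetic ulcers (log2 difference 0.95, SE 0.33, adjusted p = 0.0862). The D-type cyclins thus had estimates of opposite sign, with Ccnd1 at -0.03. Of 19 inhibitors and quiescence genes, 1 passed (5.26%, below the 8.95% of all features): Ccng1, cyclin G1, a target of p53, was higher in diabetic ulcers. It had 241, 179.5 and 130.0 FPKM in diabetic ulcers and 48.8, 86.3 and 86.2 FPKM in non-diabetic ulcers (log2 difference 1.31, SE 0.29, adjusted p = 0.0390). Its PRP libraries had 133, 97.4 and 108 FPKM, and its highest library was diabetic replicate 1, where most cell cycle genes were lowest. Cdkn1a, the inhibitor p21, had 57.8, 165 and 70.5 FPKM in diabetic ulcers and 27.4, 47.4 and 53.8 FPKM in non-diabetic ulcers (log2 difference 1.07, SE 0.44, adjusted p = 0.124). The calls of Ccnd3 and Ccng1 each ended under 12 of 17 alternatives, and no gene of these lists passed for PRP against diabetic ulcers.

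The last question was how the genes followed epithelial content. Over 9 libraries the correlation with the epithelial score was positive for all 39 genes, with a median Pearson r of 0.56 beside 0.14 over all features, and a median Spearman rho of 0.80 beside 0.15. By exact two-sided permutation with Benjamini-Hochberg adjustment over 15600 features, 4 of 39 genes passed for Pearson's r, against 21.6% of all features, and 13 had an unadjusted p under 0.05, against 39.2% of all features. The 4 were Mcm7 (r = 0.83, exact permutation p = 0.00481, adjusted p = 0.0324; rho = 0.93, adjusted p = 0.0185), Rrm1 (r = 0.80, exact permutation p = 0.00628, adjusted p = 0.0373; rho = 0.95, adjusted p = 0.0126), Aurka (r = 0.79, exact permutation p = 0.0103, adjusted p = 0.0486; rho = 0.75, adjusted p = 0.10) and Cdt1 (r = 0.79, exact permutation p = 0.0107, adjusted p = 0.0495; rho = 0.75, adjusted p = 0.10). For Mki67, r was 0.68 (exact permutation p = 0.0425, adjusted p = 0.115) and rho was 0.87 (exact permutation p = 0.00451, adjusted p = 0.0410). By Spearman's rho, 13 of 39 genes passed, against 13% of all features, and 30 had an unadjusted p under 0.05, against 32.6% of all features. Leaving out 1 library at a time moved the Pearson count. With non-diabetic replicate 3 left out, 13 genes passed, beside 5.78% of all features. It was 2 with PRP replicate 3 left out (16.8% of all features), 2 with diabetic replicate 1 left out (22.7%) and 2 with non-diabetic replicate 2 left out (22.2%). With any of the other 5 left out it was 0, beside 5.96% to 16.4% of all features.

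Non-diabetic replicate 3 held the lowest score, 1.62, with a mid-range mean level of 2.79 for the cell cycle genes. Leaving out the 2 libraries farthest from the median score, non-diabetic replicates 3 and 1, the median r was 0.89 with all 39 positive, beside 0.20 over all features. Mki67 then had r = 0.96 and Kif11 0.98, whereas Aurka had 0.32. The r of Aurka was thus lower without those 2 libraries than over all 9 (0.79), a difference that was not tested. Mcm7 had 0.90, Rrm1 0.92 and Cdt1 0.57 without them. As deviations from group means, the median r was 0.54 beside 0.13 over all features, with 38 of 39 positive, and Mcm7 had 0.75, Rrm1 0.64, Aurka 0.62, Mki67 0.61 and Cdt1 0.59. A limma slope on the score with group in the model had a median of 0.17 log2 units per unit of score, with 38 of 39 positive. None of the 39 slopes passed, against 4.85% of all features, and 3 had an unadjusted p under 0.05, against 19.4% of all features. These were Mcm7 (0.21, SE 0.08, adjusted p = 0.178), Pcna (0.14, SE 0.06, adjusted p = 0.242) and Ccnb1 (0.36, SE 0.15, adjusted p = 0.247), the last named after its values were seen. Without non-diabetic replicate 3, 10 slopes passed, beside 3.02% of all features, and the median slope was 0.41 beside 0.04 over all features. Without diabetic replicate 1 the median slope was 0.076.

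The hair follicle and keratinocyte parts of the score did not relate alike to the cell cycle genes. The median r was 0.66 with the hair follicle markers alone and 0.27 with the keratinocyte markers alone, beside 0.16 and 0.052 over all features. Hair follicle markers averaged 5.76, 4.84 and 3.91 on the log2 scale in PRP ulcers, 3.78, 7.12 and 6.55 in diabetic ulcers, and 2.62, 5.74 and 0.73 in non-diabetic ulcers. The 3 libraries highest in these markers, diabetic replicates 2 and 3 and PRP replicate 1, were also the 3 highest in cell cycle genes, while non-diabetic replicate 3 was lowest in these markers but not in cell cycle genes. Keratinocyte markers were highest in PRP replicate 2, at 7.22, and ran between 6.38 and 7.22 in all PRP and diabetic libraries, a narrow range over which the cell cycle genes ran between 2.20 and 3.53. In non-diabetic replicates 1, 2 and 3 the keratinocyte markers averaged 5.36, 5.99 and 2.84. The median r of 0.27 includes that last library, which lay far from the others. Once the score entered the limma model beside group, the diabetic minus non-diabetic difference of Mki67 was -0.11 (adjusted p = 0.964) and that of Top2a -0.091 (adjusted p = 0.969). These are opposite in sign to the values without the score, but neither could be told from 0. The mean score was 6.23 in diabetic and 3.75 in non-diabetic ulcers, and with it in the model 0% of all features were called. Whether epithelial content accounts for the difference was not tested. The 12 macrophage markers, all detected in every library, averaged 5.44 to 5.95 on the log2 scale in PRP ulcers, 4.07 to 5.99 in diabetic ulcers and 6.52 to 6.85 in non-diabetic ulcers, with the lowest value in diabetic replicate 2. The 12 fibroblast markers, likewise detected throughout, averaged 7.84 to 8.67 in PRP ulcers, 6.35 to 7.92 in diabetic ulcers and 8.62 to 9.02 in non-diabetic ulcers, again lowest in diabetic replicate 2. The part of these cell types in the cell cycle levels was not tested.

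**Figure D5:**
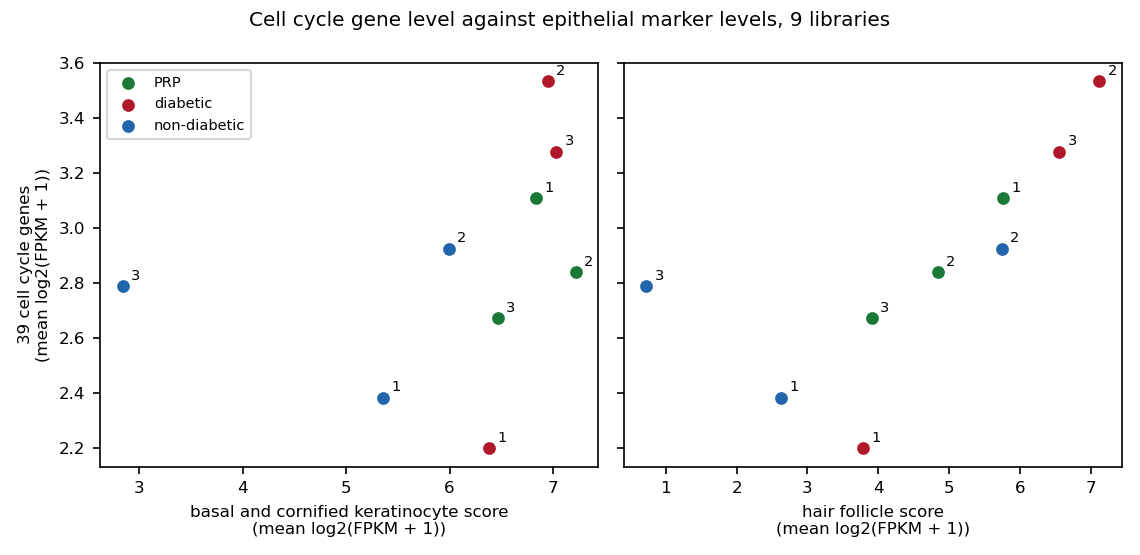
Each point is a library, with the mean log2(FPKM + 1) of the 39 genes on the vertical axis and that of keratinocyte (left) or hair follicle (right) markers on the horizontal axis. On the right the gene level is highest where the hair follicle markers are highest, at 7.12 and 6.55 in diabetic replicates 2 and 3, with non-diabetic replicate 3 apart at 0.73; on the left PRP and diabetic libraries crowd between 6.38 and 7.22.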

How the data were processed

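Ulcer skin RNA from 9 libraries was sequenced from directional libraries, as the labels state. Trimming with cutadapt, quality checks with FastQC, the tools HISAT2 and StringTie, and the mouse build GRCm39 are named in the submitters' processing notes, with no versions, although all 30560 identifiers in the table are rat; no rat build is stated. FPKM values were deposited by the authors, scaled by gene length and library size; a deposited count table of lncRNA genes served only to compare depth. Rows of the same name were summed, which gave 28370 features, of which 15600 with at least 0.5 FPKM in at least 3 libraries were tested; 7162 features have no name. Values were taken as log2(FPKM + 1) and fitted with limma-trend (limma 3.58.1, R 4.3.3) over all 9 libraries by group, with two-sided contrasts and Benjamini-Hochberg adjustment over all features; genes with an adjusted p under 0.05 are called. The epithelial score entered as a covariate for the slope, and correlations used exact permutation over the 9 libraries (Python 3.11.15, scipy 1.17.1). The scripts were tested on simulated data.

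The members and gene lists were chosen with earlier results of these data known. Values per library are given for any member called and for the 2 members of each role with the highest mean FPKM; up to 4 genes of each pathway list and the 8 most alike genes were selected by fixed rules, and of these only some are described. The libraries are labelled biological replicates. The limma p-values set a group difference or slope only against the residual spread of these libraries, pooled over groups. Those of the correlations come from permuting the pairing of the 9 libraries. Alternatives were another pseudocount, no filter, size factors, only the 6 libraries compared, the epithelial covariate, a replicate block, sample weights, other scores and leaving out libraries.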

Additional observations from a re-analysis of the deposited data

How the results depend on the processing

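In the set, 0 genes were called for diabetic against non-diabetic ulcers under every alternative other than sample weights (8 genes, with 35.9% of all features) and leaving out libraries (0 to 9). For PRP against non-diabetic ulcers the count was 11 with sample weights (41.5% of all features) and 0 to 1 when libraries were left out, and for the F test it was 11 and 0 to 1. For PRP against diabetic ulcers it was 0 under all alternatives run. The weighted fit gave non-diabetic replicate 1 the highest weight, 7.5, against 0.396 to 2.96 for the other libraries, so its counts rest largely on that library where non-diabetic ulcers are compared. Leaving out libraries gave 0 to 10 called slopes, a median slope of 0.076 to 0.41, 0 to 13 called correlations and a median r of 0.44 to 0.84. Called correlations numbered 1 with a pseudocount of 0.1 (20.2% of all features), 2 with size factors (22.9%) and 3 with hair follicle markers alone (18.8%). They numbered 0 with keratinocyte markers alone (17.3%), where the median r was 0.27. With the epithelial covariate, signs turned for diabetic minus non-diabetic (Mki67 -0.11, Top2a -0.091) and for PRP minus non-diabetic (Mki67 -0.22, Top2a -0.13). In those 2 comparisons the smallest adjusted p in limma over the 39 genes was then 0.605 and 0.602. PRP minus diabetic ran between -0.95 and 0.24 for Mki67 and between -0.88 and 0.24 for Top2a when libraries were left out, positive for both without diabetic replicate 2 and, for Top2a, 0.019 without PRP replicate 3. The median over the 39 genes was -0.069 with size factors, -0.041 with the covariate and -0.27 with sample weights for PRP minus diabetic, and -0.21 with the covariate and 0.44 with sample weights for PRP minus non-diabetic. The cause was not tested.

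Over all features, calls for diabetic against non-diabetic ulcers numbered 1396 in the fit reported, 885 with size factors, 5607 with sample weights, 0 to 3501 when libraries were left out, and 0 without the filter, with only the 6 libraries compared or with the covariate. For PRP against non-diabetic ulcers and the F test they numbered 1 each as reported, 6474 and 6824 with sample weights. Called slopes numbered 757 as reported and 105 with keratinocyte markers alone. With the replicate number as a block, 1259 features and 0 genes of the set were called for diabetic against non-diabetic ulcers, Ccng1 was no longer called, and 42 slopes were called. Deviations of same-numbered libraries from their group means correlated between -0.41 and 0.35. The labels state no pairing by number, and deviations from means of 3 libraries cannot exclude one. FPKM hides read depth, so no counting error could be given, and 3 libraries a group limit the precision.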
